A study of Homo sapiens with 60 samples.

Results

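The endoplasmic reticulum (ER) chaperones and the transcription factor XBP1 were taken as a set of 10 genes: HSPA5, HSP90B1, HYOU1, PDIA4, DNAJB11, DNAJB9, SDF2L1, CRELD2, MANF, and XBP1. They were chosen by name as ER-resident folding factors together with a transcription factor that acts on such genes. The rule that names them uses no measured value, but the choice was made with earlier results of these data known. They are 10 of the 62703 genes in the deposited count table, and all 10 were among the 12341 genes with enough counts to be tested.

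Proteins that enter the secretory pathway fold in the ER, where HSPA5 (BiP), an Hsp70 chaperone, and HSP90B1 (GRP94), an Hsp90 chaperone, bind them with the help of cofactors and of enzymes that form disulfide bonds. When unfolded proteins accumulate, the sensors ERN1 (IRE1), EIF2AK3 (PERK), and ATF6 start the unfolded protein response. IRE1 removes an intron from XBP1 mRNA so that the active factor is made, PERK slows translation and favors ATF4, and cleaved ATF6 enters the nucleus, where ATF6 and XBP1 raise chaperone genes. Reads from the 3′ end do not cover the XBP1 splice site, so these data give the amount of XBP1 mRNA and not its splicing.

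Cells of the human astrocyte-derived line 1321N1, which is an established tumor line, were exposed to sodium metaarsenite at 2.55 µM (arsenic), cadmium chloride at 2.3 µM (cadmium), or mercury chloride at 20 µM (mercury), or were non-treated, for 1.5, 3, 6, 12, or 24 h. The doses were chosen by the study for equal toxicity and differ in concentration, and each metal was tested at a single dose. There were 3 libraries for each metal and time, 60 in 20 groups, and every metal was set against the time-matched non-treated libraries to ask which response genes it changed and when. The design text of the series calls the triplicates technical, in which case the p values measure technical spread and not that of separate cultures.

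Total counts per library ran from 2215276 to 4404609, and replicates correlated across genes at 0.958 to 0.978. Mitochondrial genes took 1.35% to 7.94% of the counts. The lowest values belonged to 1 cadmium library at 6 h (1.35%) and 1 arsenic library at 3 h (1.91%), followed by 1 arsenic library at 6 h (3.83%). Of the astrocyte markers, VIM (median 4556 CPM, counts scaled to library size), CD44 (390 CPM), and SOX9 (77.3 CPM) were present, whereas GFAP, S100B, AQP4, ALDH1L1, and SLC1A2 had a median of 0. Of 10 markers of neurons, microglia, and oligodendrocytes, SYT1 reached a median of 10.9 CPM and the other 9 had a median of 0. Some markers moved with the treatments. Of the 4 astrocyte markers tested, SOX9 and CD44 were higher after 12 h of cadmium (LFC 0.55 and 0.37) and lower after 24 h of arsenic (LFC -0.98 and -0.46), SOX9 was lower after 12 h of arsenic (LFC -0.65), and NES was lower after 24 h of mercury (LFC -1.62). Scaled by TMM, the 10 astrocyte markers summed to 4728 to 6321 CPM after 12 h of cadmium against 4142 to 4801 CPM in non-treated cells, which overlap. After 24 h of arsenic they summed to 3355 to 3545 CPM against 3901 to 4737 CPM. VIM made up most of these sums and was not called by edgeR in either comparison (LFC 0.31 and -0.25, adjusted p = 0.115 and 0.175). SYT1, the only marker of other cells that was tested, was higher with mercury at 6 h (LFC 1.30) and 12 h (LFC 0.79), where the 10 markers summed to 12 to 19.7 and 11.5 to 15.2 CPM against 5.83 to 8.55 and 7.53 to 8.62 CPM. The part of these shifts in the results for the members was not tested.

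In GRCh38, HSPA5 lies at chr9:125234853-125241382 on the minus strand and HSP90B1 at chr12:103930107-103953931 on the plus strand. HYOU1 lies at chr11:119044188-119057227 (minus), and 2 members lie on chromosome 7, PDIA4 at chr7:149003062-149028662 (minus) and DNAJB9 at chr7:108569867-108574850 (plus). Chromosome 3 holds DNAJB11 at chr3:186567403-186585800 (plus) and MANF at chr3:51385291-51389397 (plus). Chromosome 22 holds SDF2L1 at chr22:21642302-21644299 (plus), CRELD2 at chr22:49918167-49927540 (plus), and XBP1 at chr22:28794555-28800597 (minus). Reads were counted on exons on the matching strand. In a later GENCODE version than the study counted on, another gene on the same strand covered 18.8% of the exon bases of DNAJB11 and 3.16% of those of HSP90B1. The counting leaves out reads in bases that genes share. In the final 400 bases of HSPA5 transcripts, 17.8% of the 50-base windows are also found in the pseudogene HSPA5P1 or in ENSG00000250746, which had 6 and 0 counts over all libraries against 237516 for HSPA5.

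Promoters of ER chaperones are known for the ER stress response element (ERSE), in which a CCAAT box bound by NF-Y stands 9 bases from a CCACG bound by ATF6 or XBP1. The window from 250 bases before to 50 bases after each RefSeq start site (GRCh38.p14) was searched on both strands for ERSE (CCAAT and CCACG with 9 bases between them), ERSE-II (ATTGG and CCACG with 1 base between them), the unfolded protein response element UPRE (TGACGTGG), the C/EBP-ATF response element CARE (TGATGNAA), and the heat shock element HSE (GAA, TTC, and GAA, with 2 bases between each). All 10 members had a window. Those of HSP90B1, DNAJB11, and CRELD2 lay wholly inside the gene at the coordinates above, since their RefSeq start sites are further downstream. ERSE was found in 27 of 35116 windows of all genes (0.0769%) and in HSPA5, HSP90B1, CRELD2, and XBP1. ERSE-II was found in 19 windows (0.0541%), among them SDF2L1 and HYOU1, and UPRE in 0.729%, among them HYOU1, where it overlaps an ERSE-II. CARE (3.62% of windows) and HSE (0.49%) matched no member, and PDIA4, DNAJB11, DNAJB9, and MANF held none of the 5 motifs in these letters.

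The stretches before the start of the gene are shown for HSPA5 and XBP1, the main chaperone and the transcription factor of the set, for SDF2L1 and HYOU1, which share ERSE-II, and for DNAJB9, which rose most without a match. Capitals mark the motif, and each is written 5′ to 3′ on the strand of its gene, from RefSeq, GRCh38.p14.
HSPA5, chr9:125241383-125241593, minus strand, ERSE: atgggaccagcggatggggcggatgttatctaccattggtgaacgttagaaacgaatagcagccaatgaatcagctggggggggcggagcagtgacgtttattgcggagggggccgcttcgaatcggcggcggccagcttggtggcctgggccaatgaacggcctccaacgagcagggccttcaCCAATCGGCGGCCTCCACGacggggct
XBP1, chr22:28800598-28800819, minus strand, ERSE: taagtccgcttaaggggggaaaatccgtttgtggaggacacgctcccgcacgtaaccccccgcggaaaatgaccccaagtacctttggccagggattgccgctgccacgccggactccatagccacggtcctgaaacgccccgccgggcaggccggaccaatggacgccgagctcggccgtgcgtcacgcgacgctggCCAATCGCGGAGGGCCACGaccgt
SDF2L1, chr22:21642052-21642301, plus strand, ERSE-II on the opposite strand: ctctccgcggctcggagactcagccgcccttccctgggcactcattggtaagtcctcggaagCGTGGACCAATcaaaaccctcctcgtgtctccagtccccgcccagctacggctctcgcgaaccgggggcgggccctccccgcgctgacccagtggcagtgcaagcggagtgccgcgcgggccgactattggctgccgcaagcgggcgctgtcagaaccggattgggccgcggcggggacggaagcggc
HYOU1, chr11:119057228-119057455, minus strand, UPRE with ERSE-II and a second ERSE-II: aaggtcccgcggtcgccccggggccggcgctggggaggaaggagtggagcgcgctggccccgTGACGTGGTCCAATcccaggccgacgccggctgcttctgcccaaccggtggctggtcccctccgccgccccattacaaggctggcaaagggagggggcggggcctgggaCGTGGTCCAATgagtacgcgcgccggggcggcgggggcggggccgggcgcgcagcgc
DNAJB9, chr7:108569624-108569866, plus strand, no match: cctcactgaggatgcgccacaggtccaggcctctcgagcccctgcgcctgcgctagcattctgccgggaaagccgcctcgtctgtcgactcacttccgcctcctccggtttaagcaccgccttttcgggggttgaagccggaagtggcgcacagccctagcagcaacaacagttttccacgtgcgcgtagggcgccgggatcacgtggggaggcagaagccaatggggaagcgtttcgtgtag

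The ERSE of HSPA5 began 66 bases and that of XBP1 52 bases before the start site. HSP90B1 carried an ERSE on each strand, and CRELD2 carried 1 on the opposite strand. In both genes the sites lie before the RefSeq start site but inside the gene at the coordinates above. These 19-base sites are given for comparison with the ERSE of HSPA5 and XBP1 above.
HSP90B1, 194 to 176 bases before the start site: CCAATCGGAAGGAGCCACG
HSP90B1, 89 to 71 bases before the start site: CGTGGTGCGGCGCGATTGG
CRELD2, 80 to 62 bases before the start site: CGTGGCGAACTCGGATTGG
The map of motif positions shows where each match lies. A match describes the letters of the window and does not show that a factor binds there in these cells.

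**Figure D1:**
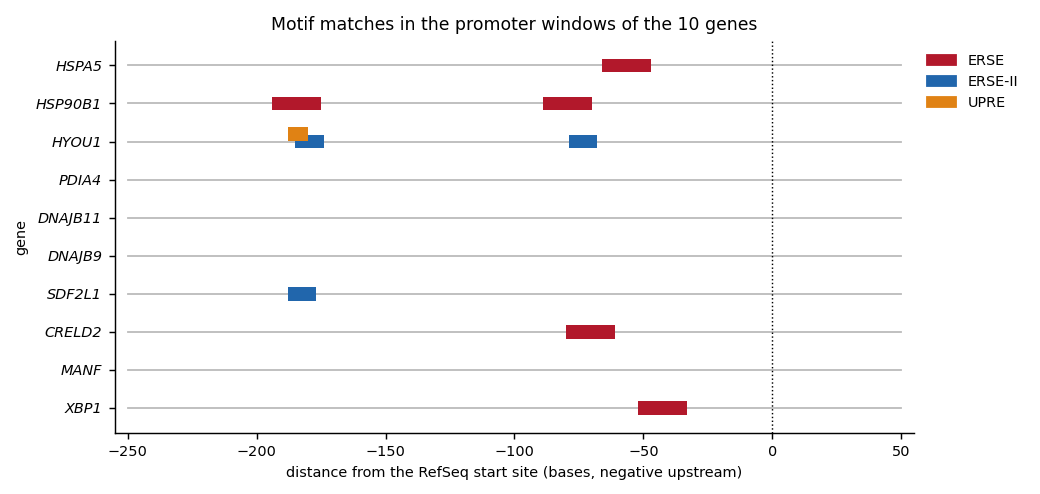
Matches to ERSE (red), ERSE-II (blue), and UPRE (orange) in the promoter windows of the 10 genes, with the distance from the RefSeq start site in bases on the x axis. The ERSE of HSPA5 and XBP1 lie 66 and 52 bases before the start site, and 4 genes have no match.

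Levels are given as CPM, counts relative to the TMM-normalized library size, and in 3′ sequencing they are not divided by gene length. Over the 60 libraries, HSPA5 ran from 878 to 1988 CPM, HSP90B1 from 618 to 1068 CPM, and MANF from 182 to 355 CPM. HYOU1 (71.8 to 121 CPM), PDIA4 (51 to 136 CPM), and XBP1 (50.7 to 203 CPM) followed. DNAJB11 (40.8 to 76.2 CPM), SDF2L1 (27.8 to 76.4 CPM), CRELD2 (27.4 to 64.0 CPM), and DNAJB9 (6.46 to 39.7 CPM) completed the set. DNAJB9 rested on 21 to 128 counts per library and HSPA5 on 2320 to 6185, so the value of DNAJB9 is the least precise of the 10.

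**Figure D2:**
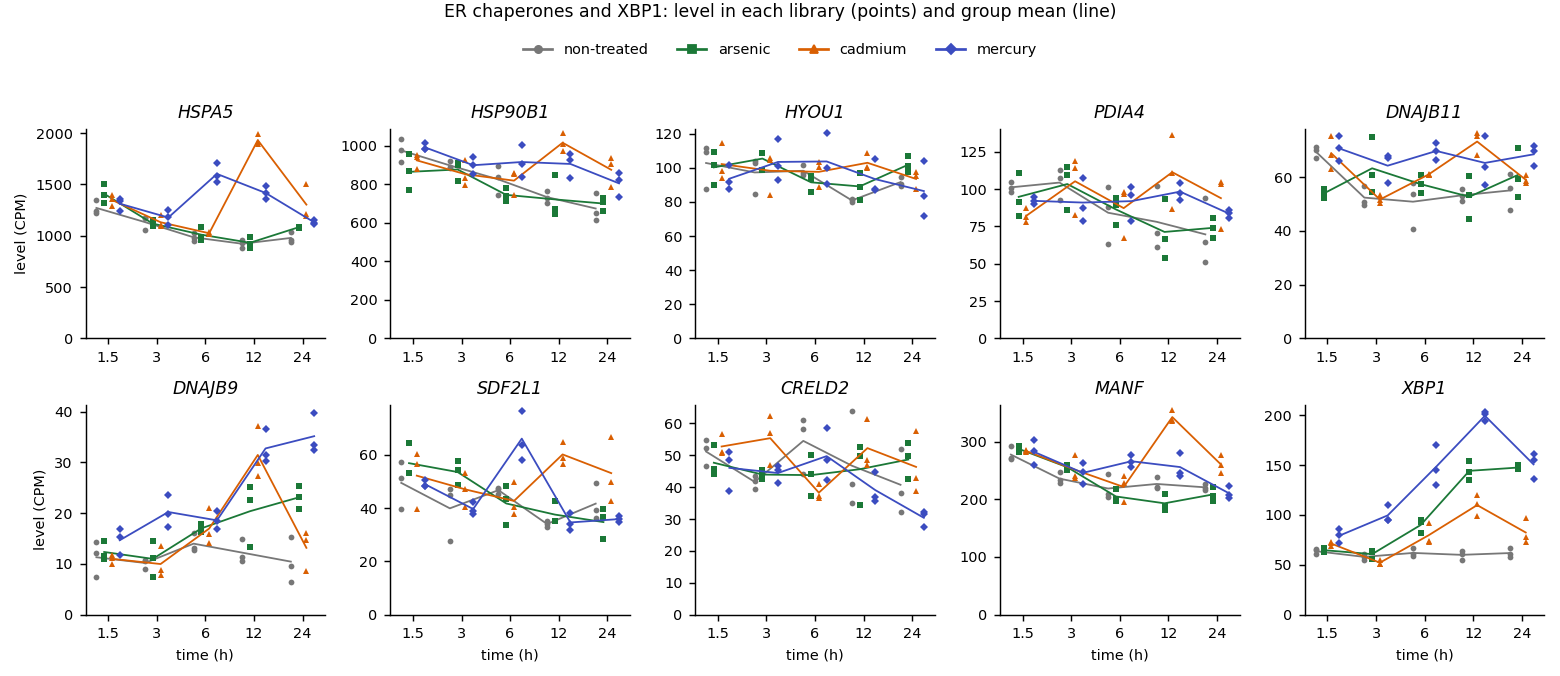
Level in CPM (y axis, from 0) of each of the 10 genes in every library (points) and the mean of 3 libraries (lines) against time in h (x axis, not to scale) for non-treated, arsenic, cadmium, and mercury cells. XBP1 climbs to 195 to 203 CPM with mercury at 12 h and HSPA5 peaks at 1891 to 1988 CPM with cadmium at 12 h, whereas edgeR called neither HYOU1 nor CRELD2 against non-treated cells at any time.

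The level of the chaperones also moved in non-treated cells. HSPA5 was at 1226, 1239, and 1347 CPM at 1.5 h and at 962, 926, and 878 CPM at 12 h, without overlap. In edgeR's quasi-likelihood test with Benjamini-Hochberg adjustment, HSPA5 was lower than at 1.5 h by an LFC (log2 fold change) of -0.37 at 6 h, -0.46 at 12 h, and -0.38 at 24 h (adjusted p = 0.0056, 3.93e-05, and 0.000916). HSP90B1 fell at 12 h (LFC -0.41) and 24 h (LFC -0.53), and MANF, an ER protein that is also secreted and binds HSPA5, fell at 6, 12, and 24 h (LFC -0.34, -0.29, and -0.33). XBP1 in non-treated cells lay between 54.95 and 67.01 CPM in all 15 libraries, and its test gave no call. Compared with 1.5 h, 2 of the 10 members differed at 6 h (0.486% of all tested genes), 3 at 12 h (4.09%), and 3 at 24 h (3.29%). DESeq2 called 3, 6, and 3 lower at these times, adding DNAJB11 at 6 h (adjusted p = 0.0277) and DNAJB11, SDF2L1, and HYOU1 at 12 h (0.0246, 0.0262, and 0.0341, against 0.0619, 0.0569, and 0.077 in edgeR). At 3 h edgeR called 0 members (0.122% of all genes), 3 had an unadjusted p under 0.05 (4.41%), and DESeq2 called 0. The call of HSPA5 at 6 h was lost without non-treated replicate 3 at 1.5 h or replicate 1 at 6 h (LFC -0.34 to -0.32, adjusted p = 0.0745 to 0.0757). MANF lost its call at 6 h without any replicate at 1.5 h or replicate 1 or 2 at 6 h (LFC -0.36 to -0.30), at 12 h without any replicate at 1.5 h or replicate 1 or 2 at 12 h (LFC -0.31 to -0.26), and at 24 h without replicate 1 at 1.5 h or at 24 h (LFC -0.32 to -0.30). With no filter, none of its calls held (adjusted p = 0.073 to 0.17).

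With arsenic, XBP1 rose from 6 h on and DNAJB9 at 24 h, and none of the other 8 members passed the test at any time. XBP1, the transcription factor of the set, was at 94.5, 93.0, and 82.4 CPM at 6 h against 58.4, 66.9, and 60.4 CPM in non-treated cells, an LFC of 0.54 ± 0.11 (SE, n = 3, adjusted p = 0.0022). At 12 h it was at 154, 135, and 143 CPM against 55.1, 60.8, and 63.9 CPM, which is 2.41-fold (LFC 1.27 ± 0.11, adjusted p = 8.01e-15). At 24 h it was at 147, 150, and 146 CPM against 57.9, 67.0, and 60.3 CPM, which is 2.39-fold (LFC 1.26 ± 0.11, adjusted p = 4.5e-15). All arsenic libraries were above all non-treated libraries at these 3 times. In bulk samples, a gain or loss of RNA per cell and a change in which cells are present cannot be told apart.

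DNAJB9 (ERdj4), a J-domain cofactor of HSPA5 that acts in ER-associated degradation, was at 20.7, 23.2, and 25.3 CPM after 24 h of arsenic. Its non-treated libraries were at 9.53, 6.46, and 15.3 CPM, so the groups did not overlap, and the LFC was 1.14 ± 0.25 (adjusted p = 0.000443). At 12 h its values of 25.2, 13.2, and 22.6 CPM overlapped the non-treated values of 14.8, 10.5, and 11.3 CPM (LFC 0.74 ± 0.24, adjusted p = 0.0669), with a call without arsenic replicate 2 (LFC 0.97, adjusted p = 0.0142) or in DESeq2 (adjusted p = 0.037).

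HSPA5, HSP90B1, and MANF were not called by edgeR with arsenic at any time. HSPA5 at 12 h was at 920, 992, and 883 CPM against 962, 926, and 878 CPM, so the groups overlapped, with an LFC of 0.01 and a 95% interval of -0.14 to 0.17. HSP90B1 at 12 h had an LFC of -0.02 (95% interval -0.20 to 0.16). MANF at 12 h lay at 188, 209, and 182 CPM, below its non-treated values of 221, 219, and 239 CPM (LFC -0.23, adjusted p = 0.114), and DESeq2 called it lower (LFC -0.24, adjusted p = 0.0461).

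Of the 10 members, edgeR called 1 higher at 6 h, where 0.608% of all tested genes were higher, 1 at 12 h (2.37%), and 2 at 24 h (6.54%). At 1.5 and 3 h it called 0 members (0.0648% and 0.122% of all genes), 1 and 2 had an unadjusted p under 0.05 (9.88% and 7.37% of all genes), and DESeq2 called 0 at both times. Past an LFC of 1 there were 0 members at 1.5, 3, and 6 h (0.0081%, 0.0567%, and 0.284% of all genes), 1 at 12 h (0.859%), and 2 at 24 h (3.31%). Of 50 member and time pairs, 4 were higher and 0 lower, where 0.0081%, 0.0162%, 0.308%, 1.74%, and 7.75% of all genes were lower from 1.5 to 24 h, and 2 pairs had an unadjusted p under 0.05 with a lower level.

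With cadmium, 7 of the 10 members rose at 12 h, and edgeR did not call 4 of these at 24 h. HSPA5 reached 1915, 1988, and 1891 CPM at 12 h against 962, 926, and 878 CPM in non-treated cells. The LFC was 1.07 ± 0.08 (2.10-fold, adjusted p = 1.82e-18), and every cadmium library was above every non-treated library. HSP90B1 was at 972, 1011, and 1068 CPM against 703, 768, and 732 CPM (LFC 0.47 ± 0.09, adjusted p = 0.000144), also without overlap. HYOU1 (GRP170), an Hsp70-related exchange factor for HSPA5, had 101, 99.7, and 109 CPM against 80.0, 81.5, and 81.2 CPM, with no overlap but with an LFC of 0.35 and an adjusted p of 0.0534 (0.0451 with a stricter filter and 0.036 in DESeq2).

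Among the cofactors at 12 h, DNAJB9 was at 37.2, 27.3, and 29.8 CPM against 14.8, 10.5, and 11.3 CPM (LFC 1.35 ± 0.24, adjusted p = 3.11e-05). DNAJB11 (ERdj3), a J-domain cofactor that binds unfolded chains, was at 76.2, 68.2, and 75.1 CPM against 52.9, 55.6, and 51.1 CPM (LFC 0.46 ± 0.12, adjusted p = 0.0111). SDF2L1, which forms a complex with DNAJB11, was at 59.0, 64.9, and 56.5 CPM against 35.2, 32.7, and 34.0 CPM (LFC 0.82 ± 0.17, adjusted p = 0.000373). For all 3 cofactors the groups did not overlap, and the share of all tested genes without overlap was not counted. The call of DNAJB11 was lost without cadmium replicate 3 or non-treated replicate 3 (LFC 0.43 to 0.44, adjusted p = 0.0501 to 0.0554) and with no filter on low counts (adjusted p = 0.0653).

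MANF rose to 355, 337, and 336 CPM at 12 h against 221, 219, and 239 CPM (LFC 0.60 ± 0.08, adjusted p = 1.67e-07). XBP1 was at 98.9, 111, and 120 CPM against 55.1, 60.8, and 63.9 CPM (LFC 0.88 ± 0.11, adjusted p = 6.43e-09). Neither overlapped its non-treated group. PDIA4 (ERp72), a protein disulfide isomerase, was spread over 86.7 to 136 CPM with cadmium and 61.3 to 102 CPM without (LFC 0.52 ± 0.18, adjusted p = 0.0523), and it was called without cadmium replicate 1 or non-treated replicate 2 (LFC 0.66 to 0.76, adjusted p = 0.00745 to 0.0206), with no filter (0.00463), with the replicate block (0.0488), and with the compared groups alone (0.0281). CRELD2, an ER protein with isomerase activity, overlapped fully at 47.1 to 61.3 CPM against 35.1 to 64.0 CPM (LFC 0.15, adjusted p = 0.683).

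At 24 h of cadmium, edgeR still called 3 members. DESeq2 also called MANF (LFC 0.25, adjusted p = 0.0376, against 0.24 and 0.136 in edgeR). From 12 to 24 h, edgeR's test of the change of effect called none of MANF, SDF2L1, and DNAJB11 (adjusted p = 0.219, 0.467, and 0.49). HSPA5 was at 1214, 1194, and 1502 CPM against 962, 1038, and 937 CPM (LFC 0.41 ± 0.08, adjusted p = 0.000141), with replicate 3 far above the other 2. Across genes, replicate 3 correlated at 0.960 and 0.958 with replicates 1 and 2, which correlated at 0.977 with each other. HSP90B1 had an LFC of 0.38 (adjusted p = 0.0086), and XBP1, at 73.0, 77.6, and 96.7 CPM, had an LFC of 0.41 (adjusted p = 0.0275). DNAJB9 was at 14.8, 16.0, and 8.62 CPM against 9.53, 6.46, and 15.3 CPM, with overlapping groups (LFC 0.35, adjusted p = 0.629), and the change of its effect from 12 h was not called (LFC -1.0, 95% interval -1.70 to -0.30, adjusted p = 0.244). The call of HSP90B1 was lost without cadmium replicate 1 or 2 or non-treated replicate 1 or 2 (LFC 0.32 to 0.35, adjusted p = 0.0514 to 0.105), and that of XBP1 without cadmium replicate 3 or non-treated replicate 1 or 3 (LFC 0.29 to 0.39, adjusted p = 0.0897 to 0.224). In a fit of the compared groups alone, HSPA5 (adjusted p = 0.0973), HSP90B1 (0.191), and XBP1 (0.366) were not called, and with no filter XBP1 was not (0.143).

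With cadmium, 7 of the 10 members were called higher at 12 h (5.19% of all tested genes) and 3 at 24 h (1.56%). At 1.5, 3, and 6 h edgeR called 0 members (0%, 0.203%, and 1.6% of all genes), and 0, 1, and 3 had an unadjusted p under 0.05 (8.03%, 8.18%, and 13.2%). DESeq2 called 0, 0, and 1 at these times, the last being XBP1 at 6 h with 92.4, 73.4, and 72.9 CPM against 58.4, 66.9, and 60.4 CPM (edgeR LFC 0.37, adjusted p = 0.0758). The 92.4 CPM belonged to the library with 1.35% mitochondrial counts, and the LFC ran from 0.24 to 0.43 over the other settings and left-out libraries. Past an LFC of 1 were HSPA5 and DNAJB9 at 12 h, 2 members where 1.73% of all genes passed, against 0 members at 1.5, 3, 6, and 24 h (0%, 0.0891%, 0.624%, and 0.624%). Of 50 pairs, 10 were higher and 0 lower, where 0%, 0%, 0.446%, 2.99%, and 0.632% of all genes were lower from 1.5 to 24 h, and 1 pair had an unadjusted p under 0.05 with a lower level.

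With mercury, XBP1 and DNAJB9 rose first, at 3 h, and HSPA5 followed at 6 h. XBP1 was at 94.7, 110, and 94.5 CPM at 3 h against 54.95, 60.5, and 58.2 CPM (LFC 0.78 ± 0.11, adjusted p = 3.15e-07). It reached 130, 170, and 145 CPM at 6 h (LFC 1.26 ± 0.11, adjusted p = 1.21e-14) and 195, 203, and 201 CPM at 12 h, which is 3.33-fold (LFC 1.73 ± 0.11, adjusted p = 1.36e-21). At 24 h it was at 155, 161, and 136 CPM (LFC 1.29 ± 0.11, adjusted p = 6.78e-16). At each of these 4 times all mercury libraries were above all non-treated ones. At 1.5 h its values of 79.4, 71.4, and 86.4 CPM also lay above the non-treated 65.6, 64.9, and 60.5 CPM, without a call (LFC 0.31, adjusted p = 0.454).

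DNAJB9 was at 17.2, 23.5, and 19.8 CPM after 3 h of mercury against 9.06, 10.8, and 10.6 CPM (1.99-fold, adjusted p = 0.0163). It was not called at 6 h (LFC 0.41, adjusted p = 0.374), where its values of 16.8 to 20.4 CPM still lay above the non-treated 12.7 to 16.1 CPM. At 12 h it was at 30.3, 31.4, and 36.5 CPM (LFC 1.42 ± 0.24, adjusted p = 4.34e-06) and at 24 h at 33.4, 39.7, and 32.4 CPM against 9.53, 6.46, and 15.3 CPM, which is 3.36-fold (LFC 1.75 ± 0.24, adjusted p = 2e-08). The value at 24 h was the largest of any member over the 15 comparisons, and neither group overlapped its control. The call at 3 h was lost without mercury replicate 2 or any non-treated replicate (LFC 0.85 to 1.04, adjusted p = 0.0501 to 0.174).

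HSPA5 rose with mercury to 1580, 1709, and 1519 CPM at 6 h against 947, 1025, and 982 CPM (LFC 0.70 ± 0.08, adjusted p = 4.46e-11). At 12 h it was at 1355, 1481, and 1415 CPM (LFC 0.62 ± 0.08, adjusted p = 1.18e-09). By 24 h it was at 1113, 1155, and 1125 CPM against 962, 1038, and 937 CPM, an LFC of 0.21 ± 0.08 (adjusted p = 0.0296). The groups did not overlap at any of the 3 times. Its call at 24 h was lost without mercury replicate 2 or 3 or non-treated replicate 1 or 3 (LFC 0.18 to 0.21, adjusted p = 0.0565 to 0.111) and with no filter on low counts (adjusted p = 0.0882).

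HSP90B1, DNAJB11, SDF2L1, and MANF were also called with mercury, each at 1 or 2 times. HSP90B1 was at 957, 928, and 835 CPM at 12 h (LFC 0.30, adjusted p = 0.0126) and at 860, 824, and 733 CPM at 24 h, where it overlapped the non-treated 651, 618, and 757 CPM (LFC 0.26, adjusted p = 0.0268). DNAJB11 was at 72.8, 66.5, and 69.7 CPM at 6 h against 58.0, 53.7, and 40.8 CPM (LFC 0.46, adjusted p = 0.0114) and had an LFC of 0.32 at 24 h (adjusted p = 0.0455). SDF2L1 was at 63.7, 76.4, and 58.2 CPM at 6 h against 47.3, 45.3, and 47.5 CPM (LFC 0.50, adjusted p = 0.0449). MANF was at 277, 264, and 257 CPM at 6 h against 204, 209, and 243 CPM (LFC 0.28, adjusted p = 0.0254). CRELD2 at 24 h was at 31.5, 32.2, and 27.4 CPM against 32.2, 38.1, and 51.9 CPM (LFC -0.42, adjusted p = 0.076), and it was called lower without non-treated replicate 1 (LFC -0.57, adjusted p = 0.0276).

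Each of these smaller calls was lost when at least 1 of the libraries compared was left out. At 6 h, DNAJB11 lost its call without non-treated replicate 3 (LFC 0.32, adjusted p = 0.185), SDF2L1 without mercury replicate 1 or 2 or any non-treated replicate (LFC 0.39 to 0.53, adjusted p = 0.0678 to 0.23), and MANF without mercury replicate 1 or non-treated replicate 1 or 2 (LFC 0.23 to 0.26, adjusted p = 0.0947 to 0.156). HSP90B1 lost it at 12 h without mercury replicate 1 or 2 or non-treated replicate 1 (LFC 0.26 to 0.29, adjusted p = 0.0534 to 0.0786) and at 24 h without mercury replicate 1 or 2 or non-treated replicate 1 or 2 (LFC 0.20 to 0.24, adjusted p = 0.0819 to 0.163), and DNAJB11 at 24 h without mercury replicate 1 or 2 or non-treated replicate 1 or 3 (LFC 0.23 to 0.33, adjusted p = 0.0682 to 0.256). With the compared groups alone, DNAJB11 at 6 h (adjusted p = 0.0674) and 24 h (0.0976) and MANF at 6 h (0.11) were not called, and with no filter MANF at 6 h (0.092) and DNAJB11 at 24 h (0.167) were not.

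With mercury, edgeR called 2 of the 10 members higher at 3 h (1.39% of all tested genes) and 5 at 6 h (4.49%). Later it called 4 at 12 h (8.89%) and 5 at 24 h (13.9%). At 1.5 h it called 0 members (0.478% of all genes), 1 had an unadjusted p under 0.05 (5.62%), and DESeq2 called 0. Past an LFC of 1 were 0 members at 1.5 h (0.219% of all genes) and 3 h (0.486%) and 1 at 6 h (1.51%), and XBP1 and DNAJB9 were past it at 12 h (3.75%) and 24 h (7.46%). Of 50 pairs, 16 were higher and 0 lower, where 0.0891%, 0.154%, 2.99%, 7.16%, and 13.9% of all genes were lower from 1.5 to 24 h, and 1 pair had an unadjusted p under 0.05 with a lower level.

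**Figure D3:**
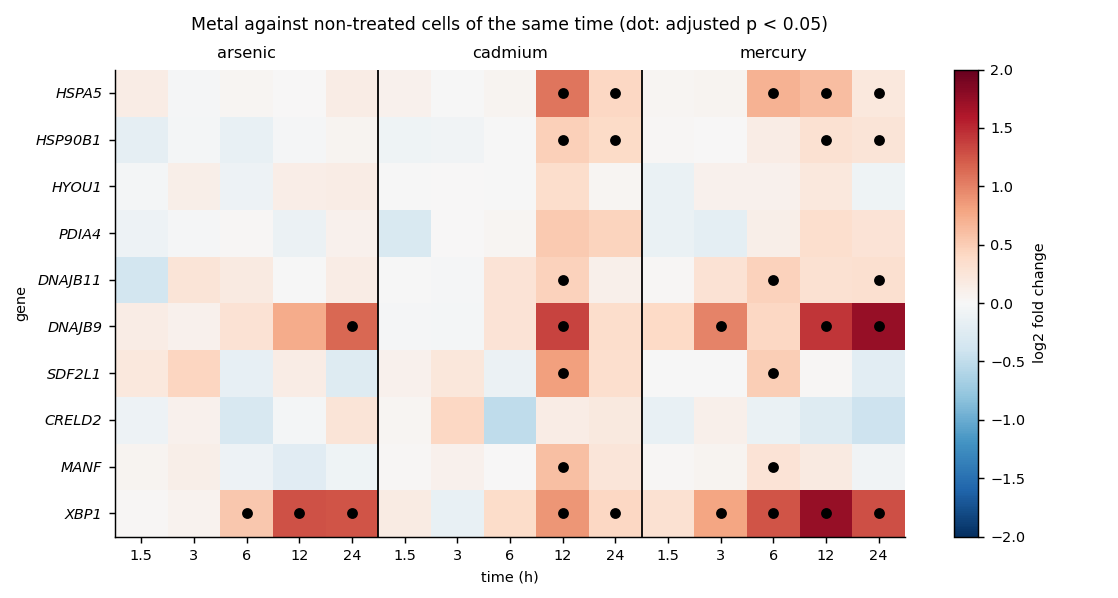
LFC of the 10 genes (rows) in each metal against non-treated cells of the same time (columns, time in h), on a color scale from blue (lower) to red (higher), with a dot where edgeR's adjusted p was under 0.05. XBP1 carries a dot at 3 times for arsenic, 2 for cadmium, and 4 for mercury, while HYOU1, PDIA4, and CRELD2 carry none.

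HYOU1, PDIA4, and CRELD2 were not called against non-treated cells at any time, apart from the other settings and left-out libraries given here and above. The LFC of HYOU1 ran from -0.14 to 0.35, that of PDIA4 from -0.30 to 0.52, and that of CRELD2 from -0.51 to 0.41 over the 15 comparisons. PDIA4 came nearest after cadmium at 12 h (above) and had an LFC of 0.44 at 24 h of cadmium (adjusted p = 0.233) and 0.34 at 12 h of mercury (adjusted p = 0.208), with calls without non-treated replicate 3 at 24 h (LFC 0.72, adjusted p = 0.0277) and without non-treated replicate 2 at 12 h (LFC 0.57, adjusted p = 0.0372). For CRELD2 the lowest value was after 6 h of cadmium, at 37.3, 36.7, and 40.9 CPM against 58.4, 44.2, and 61.0 CPM, without overlap and without a call (LFC -0.51, adjusted p = 0.135). HYOU1 shares ERSE-II with SDF2L1, which was called after cadmium at 12 h and mercury at 6 h, and CRELD2 shares ERSE with HSPA5. The median LFC of the 10 members was 0.56 after 12 h of cadmium and 0.35 after 24 h, with all 10 above 0 at both times, against -0.02 and -0.01 for all tested genes. With mercury it was 0.34, 0.30, and 0.23 at 6, 12, and 24 h, and with arsenic it was -0.03, 0.00, and 0.15.

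The metals were also set directly against each other, where the non-treated libraries entered only the filter, the scaling, and the shared estimate of the spread. At 12 h, arsenic lay below cadmium for HSPA5 (LFC -1.05, 95% interval -1.20 to -0.90, adjusted p = 5.29e-18), where arsenic libraries were at 883 to 992 CPM and cadmium libraries at 1891 to 1988 CPM. MANF (LFC -0.83, adjusted p = 1.03e-11), SDF2L1 (-0.68, adjusted p = 0.00489), HSP90B1 (-0.49, adjusted p = 8.27e-05), DNAJB11 (-0.47, adjusted p = 0.0113), and PDIA4 (-0.65, adjusted p = 0.0159) were lower as well. XBP1 went the other way, at 135 to 154 CPM with arsenic and 98.9 to 120 CPM with cadmium (LFC 0.39, adjusted p = 0.0122). So the arsenic cells held more XBP1 mRNA and less mRNA of 6 chaperones and cofactors than the cadmium cells. DNAJB9 had an LFC of -0.61 (95% interval -1.07 to -0.16, adjusted p = 0.0971). At 24 h, XBP1 (LFC 0.85, adjusted p = 3.97e-09) and DNAJB9 (LFC 0.79, adjusted p = 0.0212) were higher with arsenic, and HSPA5 (-0.27), HSP90B1 (-0.32), SDF2L1 (-0.60), and MANF (-0.32) were lower.

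In all, 7 members differed between arsenic and cadmium at 12 h (5.77% of all tested genes, in either direction) and 6 at 24 h (10.2%). At 1.5, 3, and 6 h edgeR called 0 members (0%, 0.138%, and 1.18%), 1, 1, and 0 had an unadjusted p under 0.05 (6.77%, 6.57%, and 9.29%), and DESeq2 called 0 at each. Without 1 library, calls were lost at 12 h for PDIA4 (arsenic replicate 1 or 2, cadmium replicate 3, LFC -0.60 to -0.47), DNAJB11 (arsenic replicate 1, cadmium replicate 1 or 3, LFC -0.45 to -0.36), and XBP1 (arsenic replicate 1, cadmium replicate 1, LFC 0.33 to 0.34). At 24 h they were lost for HSPA5 (cadmium replicate 3, LFC -0.15), HSP90B1 (arsenic replicate 1, cadmium replicate 1 or 2, LFC -0.30 to -0.27), DNAJB9 (arsenic replicate 2 or 3, cadmium replicate 3, LFC 0.59 to 0.79), SDF2L1 (arsenic replicate 3, cadmium replicate 3, LFC -0.47 to -0.41), and MANF (cadmium replicate 1, LFC -0.28), and these 5 genes were not called at 24 h with the compared groups alone (adjusted p = 0.0787 to 0.17). With no filter, DNAJB11 (0.0718) and XBP1 (0.054) were not called at 12 h.

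Between cadmium and mercury, HSPA5, SDF2L1, and MANF parted from XBP1 at 12 and 24 h, and no other member was called at 12 h. At 12 h, cadmium was higher for HSPA5 (LFC 0.45, adjusted p = 3e-05), SDF2L1 (0.80, adjusted p = 0.00163), and MANF (0.42, adjusted p = 0.000612), and lower for XBP1 (-0.86, adjusted p = 8.97e-09). The SDF2L1 libraries were at 56.5 to 64.9 CPM with cadmium and 31.7 to 38.1 CPM with mercury. DNAJB9 was at 27.3 to 37.2 CPM with cadmium and 30.3 to 36.5 CPM with mercury (LFC -0.07, 95% interval -0.51 to 0.37). At 24 h, cadmium was lower for XBP1 (LFC -0.88, adjusted p = 8.31e-10) and DNAJB9 (-1.39, adjusted p = 4.43e-06) and higher for HSPA5 (0.20), SDF2L1 (0.55), CRELD2 (0.61, adjusted p = 0.00948), and MANF (0.31). Earlier, mercury was higher for DNAJB9 and XBP1 at 3 h (LFC of cadmium over mercury -1.04 and -0.94) and for HSPA5, SDF2L1, and XBP1 at 6 h (-0.65, -0.62, and -0.90).

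Of the members, 2 differed between cadmium and mercury at 3 h (1.78% of all tested genes), 3 at 6 h (3.78%), then 4 at 12 h (3.29%) and 6 at 24 h (20%). At 1.5 h edgeR called 0 (0.656%), 0 had an unadjusted p under 0.05 (9.32%), and DESeq2 called 0. At 6 h DESeq2 also called MANF (adjusted p = 0.0154, against 0.0586 in edgeR). Calls lost without 1 library were DNAJB9 at 3 h (cadmium replicate 2 or 3, mercury replicate 2, LFC -0.95 to -0.88), SDF2L1 at 6 h (cadmium replicate 2 or 3, mercury replicate 2, LFC -0.59 to -0.50), and at 24 h HSPA5 (cadmium replicate 3 or any mercury replicate, LFC 0.08 to 0.22), SDF2L1 (cadmium replicate 3, LFC 0.36), and CRELD2 (cadmium replicate 2, mercury replicate 3, LFC 0.43 to 0.54). HSPA5 at 24 h was also lost with RLE factors (adjusted p = 0.0562), with no filter (0.201), and with the compared groups alone (0.161), and MANF at 24 h with no filter (0.0532).

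The members called between arsenic and mercury from 3 to 12 h were all lower with arsenic. At 3 h, XBP1 (LFC -0.72, adjusted p = 5.75e-06) and DNAJB9 (-0.91, adjusted p = 0.0399) were lower with arsenic, whereas SDF2L1 lay above mercury at 3 h without overlap and without a call (mean 53.5 against 39.6 CPM, LFC 0.44, adjusted p = 0.215). At 6 h, HSPA5 (-0.67, adjusted p = 1.64e-09), XBP1 (-0.72, adjusted p = 7.97e-07), SDF2L1 (-0.66), MANF (-0.38), and HSP90B1 (-0.30) were lower, and at 12 h HSPA5 (-0.61, adjusted p = 7.7e-09), XBP1 (-0.47, adjusted p = 0.000956), MANF (-0.41), HSP90B1 (-0.33), and DNAJB9 (-0.68, adjusted p = 0.0487). At 24 h the XBP1 levels overlapped, 146 to 150 CPM with arsenic and 136 to 161 CPM with mercury, with an LFC of -0.03 and a 95% interval of -0.23 to 0.17. CRELD2 alone was called there, higher with arsenic at 42.4 to 53.9 CPM against 27.4 to 32.2 CPM (LFC 0.68, adjusted p = 0.00674). DNAJB9 at 24 h had an LFC of -0.60 (adjusted p = 0.0637) and was called by DESeq2 (adjusted p = 0.0381) and with the compared groups alone (0.0308).

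Of the members, 2 differed between arsenic and mercury at 3 h (1.89% of all tested genes), 5 at 6 h (4.48%), then 5 at 12 h (6.84%) and 1 at 24 h (11.4%). At 1.5 h edgeR called 0 (1.56%), 3 had an unadjusted p under 0.05 (13.1%), and DESeq2 called 1, DNAJB11. Calls lost without 1 library were DNAJB9 at 3 h (arsenic replicate 1 or 3, mercury replicate 2 or 3, LFC -0.93 to -0.68) and at 12 h (arsenic replicate 2 or any mercury replicate, LFC -0.73 to -0.46), HSP90B1 at 6 h (any arsenic replicate, mercury replicate 1 or 3, LFC -0.33 to -0.23) and at 12 h (arsenic replicate 1 or 2, mercury replicate 1 or 2, LFC -0.31 to -0.25), and SDF2L1 at 6 h (arsenic replicate 2, mercury replicate 2, LFC -0.54 to -0.53). DNAJB9 at 12 h had an adjusted p of 0.0515 with the replicate block and 0.0856 with no filter, DNAJB9 at 3 h 0.0577 with no filter and 0.113 with the compared groups alone, and HSP90B1 at 6 h 0.0928 with the compared groups alone.

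**Figure D4:**
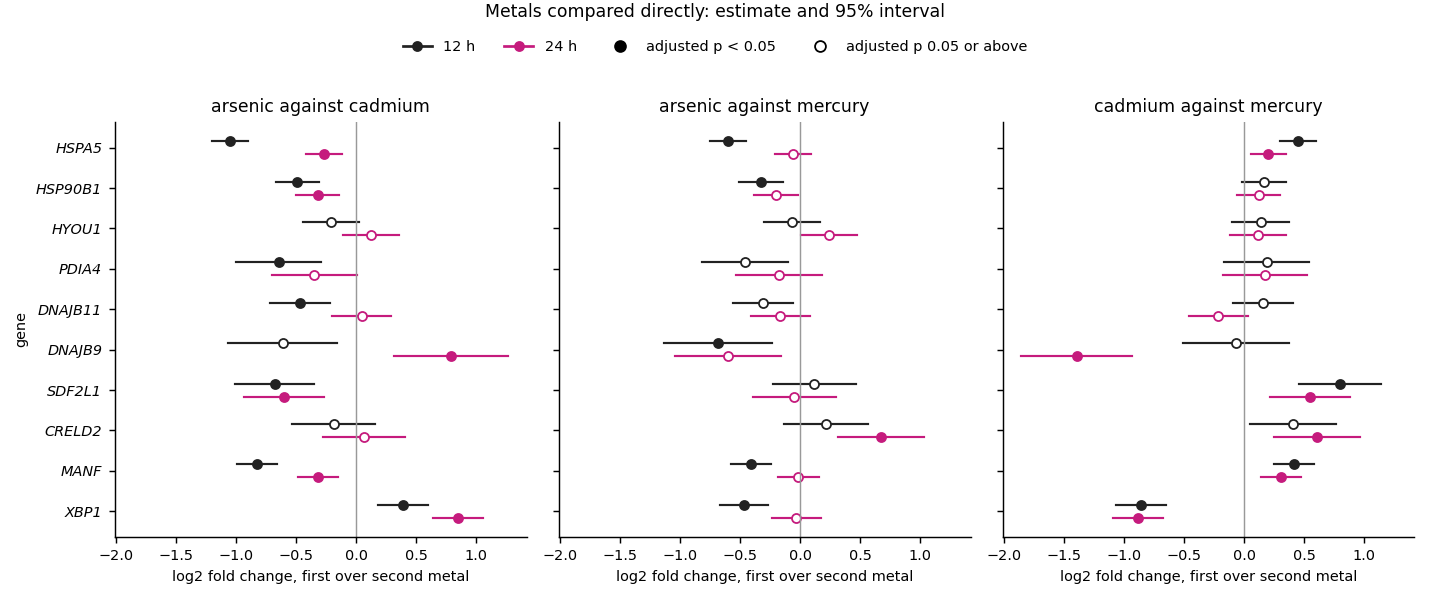
LFC of the first over the second metal (x axis) for the 10 genes at 12 h (black) and 24 h (magenta), with 95% intervals as lines and filled points where edgeR's adjusted p was under 0.05. In the panels with cadmium, HSPA5 and MANF lie on the side of cadmium and XBP1 on the side of the other metal at both times.

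Whether the effect of a metal differed between times was tested as an interaction. Between 3 and 12 h it grew for 1 member under arsenic (1.03% of all tested genes changed in either direction), for 5 under cadmium (4.89%), and for 2 under mercury (2.93%). Between 12 and 24 h it shrank for HSPA5 under cadmium (0.381%) and mercury (0.624%), 1 member each. The mercury value (adjusted p = 0.0476) was not called without any 1 of 11 of the 12 libraries compared (LFC -0.44 to -0.37, adjusted p = 0.0595 to 0.136), with RLE factors, with no filter, or with the compared groups alone, and the cadmium value was not called with the compared groups alone (adjusted p = 0.0557). At that step edgeR called 0 members under arsenic (1.57%), with 0 at an unadjusted p under 0.05 (13.9%) and 0 by DESeq2.

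Lists of genes with related roles were read beside the members. The activity of PERK was not measured, and the route to the genes listed under its arm was not tested. At 6, 12, and 24 h, 0.608%, 2.37%, and 6.54% of all tested genes were higher under arsenic, 1.6%, 5.19%, and 1.56% under cadmium, and 4.49%, 8.89%, and 13.9% under mercury, and their median LFC lay between -0.02 and 0.00. The PERK and ATF4 arm, transcription factors and stress outputs with 13 of 14 genes tested, had 11 higher at 6 h, 12 at 12 h, and 13 at 24 h of arsenic, and 0 lower. Cadmium gave 8, 9, and 6 higher (1 lower at 12 h), and mercury 11, 12, and 13. At 12 h its median LFC stood at 1.58 under arsenic, 1.37 under cadmium, and 2.55 under mercury, where the median of the 10 members was 0.00, 0.56, and 0.30. CHAC1, a glutathione-degrading enzyme, rose to 31.2 ± 7.42 CPM (SD, n = 3) with arsenic at 24 h against 3.57 ± 0.846 CPM (LFC 3.11, adjusted p = 8.2e-12). SESN2, a stress-induced regulator of mTORC1, rose at 24 h to 111 ± 14.2 CPM (arsenic), 54.7 ± 8.40 CPM (cadmium), and 145 ± 17.6 CPM (mercury) against 21.0 ± 2.49 CPM (LFC 2.39, 1.37, and 2.78). NUPR1, a stress-induced transcription regulator, was at 7.68 ± 2.76 CPM with arsenic at 24 h against 0.989 ± 0.801 CPM, a non-treated level near that of 3 counts in a library.

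A list of 13 heat-shock genes held cytosolic relatives of the members, other cytosolic chaperones and cofactors, and the mitochondrial chaperonins HSPD1 and HSPE1. With arsenic, 10, 9, and 7 of them were higher at 6, 12, and 24 h. With cadmium 11, 12, and 9 were higher, and with mercury all 13 at each of these times. At 3 h, 8 were already higher with arsenic, where 0.122% of all tested genes and 0 members were. HSPA1B, an inducible cytosolic Hsp70, rose at 6 h to 422 ± 20.3 CPM (arsenic), 473 ± 89.4 CPM (cadmium), and 780 ± 81.2 CPM (mercury) against 68.8 ± 14.5 CPM (LFC 2.61, 2.77, and 3.50). HSPA1A, a near-identical gene whose reads the counting may split, had LFCs of 2.76, 3.67, and 4.36 at 6 h, and BAG3, a cofactor of cytosolic Hsp70, 1.46, 1.75, and 2.09. HSPA8, the constitutive cytosolic Hsp70, rose by an LFC of 0.60 with arsenic at 24 h and 0.92 with mercury. HSP90AA1, a cytosolic Hsp90 and relative of HSP90B1, rose at 12 h by an LFC of 0.59 under arsenic, 0.87 under cadmium, and 1.02 under mercury. So with arsenic at 12 h HSP90AA1 was called (adjusted p = 2e-10), while the value of HSP90B1 was -0.02 (adjusted p = 0.952). With arsenic HSP90AA1 was also called at 6 h (LFC 0.39), but not at 3 h (LFC 0.20, adjusted p = 0.348) or 24 h (LFC 0.12, adjusted p = 0.238).

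Other genes of the ER were grouped by role. Of 22 tested folding enzymes and lectin chaperones, 2 rose under arsenic, 5 under cadmium, and 5 under mercury at 12 h (1 fell under mercury), and 4, 0, and 7 rose at 24 h (1 fell under arsenic and 2 under mercury). PPIB, an ER prolyl isomerase, rose with cadmium at 12 h (161 ± 24.4 against 102 ± 15.1 CPM, LFC 0.67, adjusted p = 0.0239) and with mercury at 24 h (LFC 0.65). DNAJC1, an ER J-domain protein, rose at 24 h with arsenic (LFC 0.67) and mercury (LFC 0.82, adjusted p = 6.07e-06). ERO1B, an ER oxidase, was at 4.40 ± 2.29 CPM with mercury at 24 h against 0.688 ± 0.495 CPM, a non-treated level under that of 3 counts in a library.

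Of 21 tested genes of ER-associated degradation, 7 rose under arsenic, 0 under cadmium, and 8 under mercury at 24 h (2, 0, and 1 fell), and 2, 4, and 6 rose at 12 h (1 fell under mercury). HERPUD1, a membrane protein of the degradation complex, was at 93.2 ± 8.98 CPM with arsenic, and 95.1 ± 12.4 CPM with mercury at 24 h against 29.7 ± 7.54 CPM (LFC 1.66 and 1.69), and at 88.5 ± 8.35 CPM with cadmium at 12 h against 32.6 ± 1.69 CPM (LFC 1.44). ERLEC1, an ER lectin, rose with arsenic at 24 h (LFC 0.72, adjusted p = 0.000133), and MAN1B1, a mannosidase, fell there (LFC -1.10, adjusted p = 0.000294). Of 28 genes of protein entry, signal peptidase, and N-glycosylation, 5, 0, and 7 rose at 24 h (3 fell under mercury, where 13.9% of all tested genes fell). The median LFC of these 28 genes at 24 h was 0.18, 0.07, and 0.14 under arsenic, cadmium, and mercury, that of the folding genes 0.11, 0.10, and 0.16, and that of the degradation genes 0.32, 0.09, and 0.28. SEC61G, a subunit of the translocon, rose with arsenic (LFC 0.93) and mercury (0.70), SRP19, a subunit of the signal recognition particle, likewise (0.48 and 0.52), and SSR3, a translocon-associated subunit, with arsenic (0.33), mercury (0.54), and cadmium at 12 h (0.37). Of 9 sensors and ATF6 proteases, at most 1 was higher and 1 lower at any of 6, 12, and 24 h. CREB3L1, an ATF6-related factor, fell with mercury at 12 h (6.27 ± 2.64 against 19.1 ± 7.20 CPM, LFC -1.57, adjusted p = 9.15e-05), and MBTPS1, a protease that cuts ATF6, rose with arsenic at 24 h (LFC 0.43, adjusted p = 0.0276).

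**Figure D5:**
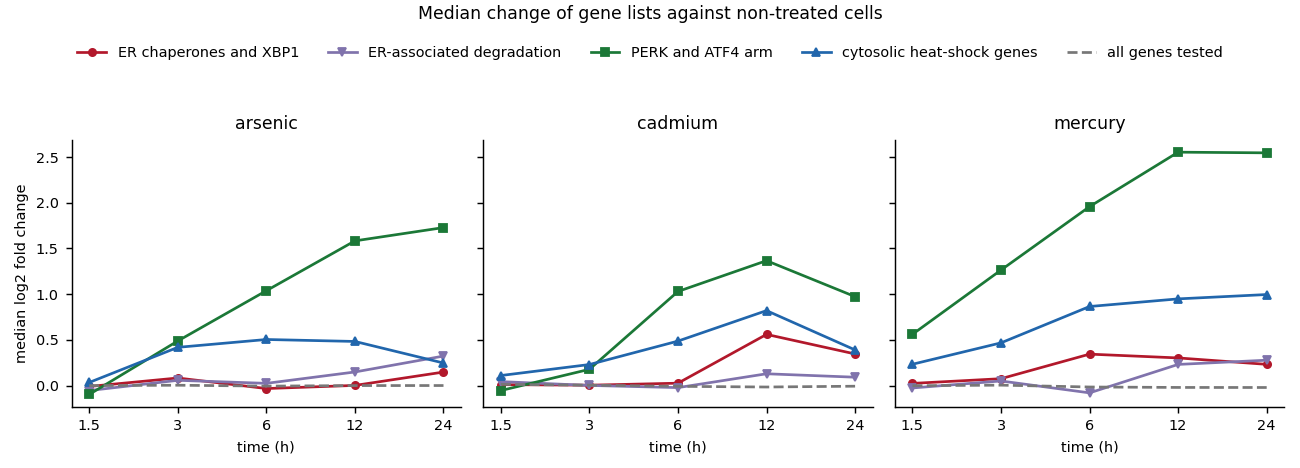
Median LFC against non-treated cells (y axis) over time in h (x axis, not to scale) for the 10 ER chaperones and XBP1, ER-associated degradation, the PERK and ATF4 arm, the heat-shock genes, and all tested genes, in 1 panel for each metal. The heat-shock list, labelled cytosolic in the legend, also holds the mitochondrial HSPD1 and HSPE1. The median of the ATF4 arm reaches 1.58 with arsenic at 12 h, where that of the 10 members is 0.00, and with cadmium the members peak at 0.56 at 12 h.

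Over the 20 group means of log2 CPM, the members fell into patterns. DNAJB9 and XBP1 had a Pearson correlation of 0.89, HSPA5 and MANF 0.88, HSP90B1 and MANF 0.84, and HSP90B1 and PDIA4 0.82. HSPA5 and XBP1 correlated at 0.28, MANF and XBP1 at -0.15, and CRELD2 and DNAJB9 at -0.40. Of 6461 genes averaging 20 CPM or more, those most like XBP1 were HERPUD1 (0.96), SLC3A2 and GARS1 (both 0.96), CEBPG (0.96), and SLC1A4 (0.95). Those most like HSPA5 were PDIA6 (0.87), UAP1 (0.75), ARHGAP18 (0.74), SDCCAG8 (0.74), and WDR36 (0.73). These values describe 20 points that share libraries, depth, and time of culture, and they carry no test.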

How the data were processed

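RNA of 1321N1 cells was sequenced from the 3′ end (QuantSeq). The authors mapped single-end reads to GRCh38 (STAR 2.7.9a) and used GenomicAlignments in Union mode, by strand and without secondary alignments, to count those on GENCODE basic exons. The deposited table holds whole-number counts per gene without normalization. Reads shared by genes are dropped in that mode. The 92 spike-ins had 0 counts and were left out, and every sample column was used.

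The counts were analysed with edgeR 4.0.16 in R 4.3.3: filterByExpr (minimum count of 10, minimum total of 15), TMM factors (0.934 to 1.03), 1 quasi-likelihood fit of all 60 libraries with a coefficient per metal and time (common biological coefficient of variation 0.120), and two-sided tests adjusted by Benjamini-Hochberg over 12341 genes within each of 40 comparisons (15 of metals with non-treated cells, 15 between metals, 4 of non-treated cells with 1.5 h, and 6 of effects between times). Members or genes were called at an adjusted p under 0.05. Comparisons of metals with non-treated cells of the same time share those controls. Intervals are at 95%. Overlap of groups describes the libraries of single genes and is no test. Groups also lay apart without a call, as for DNAJB11 after 1.5 h of arsenic (edgeR adjusted p = 0.257). The test was tried on simulated counts before use.

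The members and lists were chosen with earlier results of these data known. The genes named are the members, of each other list up to 3 genes with the largest LFC where the list had most calls, the 5 genes most like HSPA5 and XBP1, HSPA8, HSPA1A, HSP90AA1, and the cell type markers that were called. Deviations of same-numbered treated and non-treated libraries correlated at a median of -0.01 (-0.28 to 0.08 over 45 pairs), and the replicate numbers were therefore not used to pair libraries. Between replicates, chi-square divided by its degrees of freedom was at least 2.00, so no library was a copy. Alternatives were DESeq2 1.42.0 (also with ashr 2.2.63), RLE factors, no filter and a stricter filter (minimum count of 30), a replicate block, the compared groups alone, and leaving out each library. Floors of 3 counts cover counting error only. Reads were not realigned, and proteins were not analysed here.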

Additional observations from a re-analysis of the deposited data

Results flagged for a closer look

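In 10 cases, a test of the difference itself showed that the effect of a metal on a member was not the same at 2 times (edgeR's quasi-likelihood interaction test, Benjamini-Hochberg adjusted). Between 3 and 12 h, the LFC of XBP1 against non-treated cells grew by 1.202 with arsenic (adjusted p = 1.48e-07), 1.03 with cadmium (8.49e-06), and 0.95 with mercury (2.01e-05). That of HSPA5 grew by 1.07 with cadmium (1.61e-11) and 0.56 with mercury (0.000303). With cadmium, HSP90B1 grew by 0.55 (0.00448), DNAJB9 by 1.39 (0.0131), and MANF by 0.51 (0.00458). Between 12 and 24 h, the LFC of HSPA5 changed by -0.65 with cadmium (0.000211) and by -0.41 with mercury (0.0476). The change of DNAJB9 was not called without cadmium replicate 2 at 3 h (LFC 1.25, adjusted p = 0.063). That of HSPA5 with mercury was not called without any of 11 of the 12 libraries compared, all but non-treated replicate 3 at 24 h (LFC -0.44 to -0.37, adjusted p = 0.0595 to 0.136), nor with RLE factors (0.0566), no filter on low counts (0.163), or the compared groups alone (0.0675). HSPA5 with cadmium was not called between 12 and 24 h in a fit of the compared groups alone (adjusted p = 0.0557).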

How the results depend on the processing

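Of 107 single values of the members, 105 kept their direction and side of the threshold with RLE factors, 91 with no filter on low counts, 106 with a stricter filter, 105 with the replicate block, 89 with the compared groups alone, and 102 with DESeq2, and none of these settings turned a direction. With the replicate block, the pairs called higher numbered 4 under arsenic, 11 under cadmium, and 16 under mercury, and the block moved no count of calls by over 1.5 times. Arsenic had 1 pair lower than non-treated cells with DESeq2 (0 with edgeR), and arsenic and cadmium differed in 8 pairs with the compared groups alone, against 13, where fewer libraries estimate the spread. Leaving out 1 library in turn, the pairs called higher numbered 4 to 5 under arsenic, 8 to 11 under cadmium, and 13 to 17 under mercury, those past an LFC of 1 were 2 to 3, 2, and 5 to 6, and those lower were 0, 0, and 0 to 1 (1 without non-treated replicate 1 at 24 h). Pairs that differed were 10 to 13 between arsenic and cadmium, 11 to 15 between arsenic and mercury, and 13 to 15 between cadmium and mercury, 6 to 9 differed in non-treated cells, and 1, 5 to 7, and 2 to 3 members differed between times with arsenic, cadmium, and mercury. Of 702 such values, 577 kept direction and call, 113 lost a call, 6 gained one, and 6 turned direction, all in 4 results near 0: CRELD2 with cadmium at 12 h (-0.022 to 0.45), HSPA5 with arsenic at 12 h (-0.033 to 0.052), XBP1 between arsenic and mercury at 24 h (-0.10 to 0.017), and DNAJB9 between cadmium and mercury at 12 h (-0.20 to 0.026). The cause of these changes was not tested. At this depth DNAJB9 had as few as 21 counts in a library, which limits small changes of that gene most.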
